A study of Homo sapiens with 2 samples.

Results

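NF-kB is a family of dimeric transcription factors built from 5 subunits, which the genes *NFKB1*, *NFKB2*, *REL*, *RELA* and *RELB* encode. In resting cells the dimers are held by inhibitors of the IkB family, and a signal from a cytokine or microbial receptor makes the IKK kinases mark these inhibitors for destruction. Freed dimers then switch on many genes, among them genes that shut the pathway off again. In myeloid cells this circuit is known for its control of chemokines and other inflammatory transcripts. The 10 genes described here are those 5 subunits and 5 feedback inhibitors, *NFKBIA*, *NFKBIE*, *NFKBIZ*, *TNFAIP3* and *BCL3*. They were chosen by name, and all 10 were found among the 36601 genes of the deposited matrices.

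Single-cell RNA-seq was performed on 1 library of untreated control cells and on 1 library exposed to SP11 (0.8 µM, 48 h). The study gives SP11 as an HSP90 inhibitor. Both libraries carry the label MOLT4, a cell line derived from T-cell acute lymphoblastic leukemia. With 1 library per group no difference has a replicate check, so no test was made and every interval covers counting error only. After filtering, 1053 control cells with a median of 17711 UMIs and 852 SP11 cells with a median of 10489 UMIs were kept, where a UMI marks 1 captured RNA molecule.

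Markers of the labelled cell type were mostly absent. Of 26 T-lineage markers, 13 had 0 UMIs in control and 16 had 0 UMIs in SP11, with *CD3D*, *CD3G*, *CD7*, *TRBC1*, *TRBC2* and *BCL11B* at 0 in both libraries. Levels are given as CPM, the UMIs of a gene per 1000000 UMIs of the library. A count of 0 allows up to 0.155 CPM in control and 0.316 in SP11. Only *LMO2*, at 95.2 CPM and 45.2 CPM, exceeded 10 CPM. Some monocyte and macrophage transcripts were plentiful. Of 22 markers, 10 were over 10 CPM in the control library and 13 in the SP11 library, with sums of 977 and 2329 CPM. These markers did not move together. *LYZ* went from 241 to 736 CPM and *S100A8* from 4.95 to 219 CPM, while *SPI1* went from 90.1 to 27.9 CPM and *CSF3R* from 43.6 to 16.4 CPM. Others of the 22 were scarce in control and in SP11, namely *CD14* (3 and 20 UMIs), *CSF1R* (9 and 22) and *CD163* (0 and 12). *FCGR3A* (0 and 3 UMIs), *VCAN* (1 and 0) and *MRC1* (0 and 0) were nearly absent. Summed over 7 granulocyte precursor markers, the control library had 2271 CPM and the SP11 library 1013 CPM. The lower sum came from *ELANE*, *AZU1*, *PRTN3* and *CTSG*. *CEBPE* differed the other way, with 16.5 CPM in the control library against 23.2 CPM in the treated library. *MPO* (3 and 5 UMIs) and *LTF* (1 and 2) were nearly absent from both. Myeloid transcripts thus differed between the libraries along with the NF-kB genes, and their part in the differences described next was not tested. The libraries shared 114 cell barcodes, which 111 kept control cells and 112 kept SP11 cells carried. The median correlation of log-normalized profiles over the 109 pairs with both cells kept was 0.697 for cells with the same barcode and 0.699 for other pairs of these cells.

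Most members had a higher level in the SP11 library. Levels are UMIs summed over kept cells, as CPM, and the ratio is the log2 of SP11 CPM over control CPM with its 95% counting interval. Of the 10 members, 7 were at least 1.5-fold higher in SP11 and 0 were at least 1.5-fold lower, against 10.7% and 38.4% of the 12128 genes with 50 or more UMIs over both libraries. All 10 members were in that measured set. Over all measured genes the log2 ratios had a median of -0.35. Relative to this median gene 7 members were again at least 1.5-fold higher and 0 lower, against 22.5% and 24.3% of measured genes. By role, 3 of 5 subunits and 4 of 5 feedback inhibitors were at least 1.5-fold higher. The median log2 ratio was 0.62 over the subunits and 0.90 over the feedback inhibitors.

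**Figure D1:**
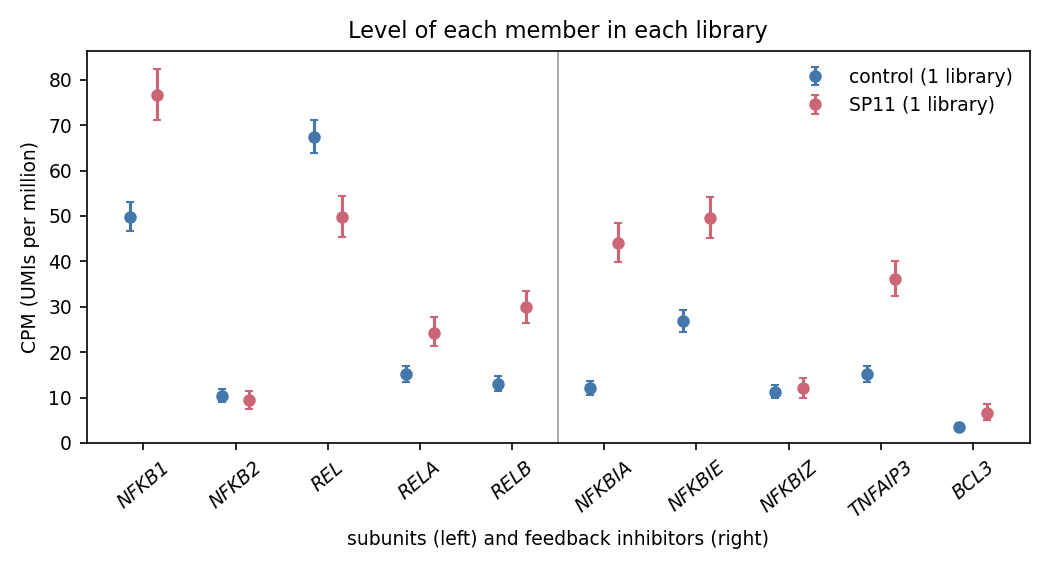
CPM of each member on a linear axis in the control library and the SP11 library, with 1 point per library and 95% Poisson intervals; subunits lie left of the grey line and feedback inhibitors right of it. *NFKBIA* goes from 12.1 CPM in control to 44.01 CPM in SP11, while *REL* goes from 67.4 CPM to 49.8 CPM.

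Among the subunits, the genes of the canonical pathway did not move together. *NFKB1* encodes p105, which is processed to the p50 subunit, and it had 966 UMIs or 49.9 CPM (95% Poisson interval 46.8 to 53.1) in control and 728 UMIs or 76.6 CPM (71.2 to 82.4) in SP11. *RELA* encodes p65, the subunit with a strong activation domain that pairs with p50, and it had 293 UMIs or 15.1 CPM (13.4 to 17.0) in control and 231 UMIs or 24.3 CPM (21.3 to 27.7) in SP11. The log2 ratio was 0.62 (0.48 to 0.76) for *NFKB1* and 0.69 (0.43 to 0.94) for *RELA*. Between these partners the balance differed little, with 3.30 *NFKB1* UMIs per *RELA* UMI in control and 3.15 in SP11, a log2 change of -0.07 (-0.36 to 0.23). The study, by contrast, lists *NFKB1* among the genes significantly lowered by SP11. It shows this as a violin plot of expression over its own, smaller set of cells. The ratio here is of UMIs summed over kept cells, so the measures are not alike. The reason for the difference from the study was not tested.

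*REL*, which encodes c-Rel, went the other way on the CPM scale. It had 1306 UMIs or 67.4 CPM (63.8 to 71.2) in control and 473 UMIs or 49.8 CPM (45.4 to 54.5) in SP11. Its ratio on the log2 scale was -0.44 (-0.59 to -0.28). That ratio lay close to the median of all measured genes, at -0.08 relative to it. The quotient of *NFKB1* to *REL* UMIs within a library, which does not depend on how the libraries are scaled, was 0.740 in control and 1.54 in SP11. This was a log2 change of 1.06 (0.85 to 1.27). For *RELA* against *REL* the quotient went from 0.224 to 0.488, a log2 change of 1.12 (0.82 to 1.42). *REL* made up 43.3% (exact binomial interval 41.5 to 45.1) of all subunit UMIs in control and 26.2% (24.2 to 28.3) in SP11, while the part of *NFKB1* was 32.0% (30.3 to 33.7) and 40.3% (38.1 to 42.6).

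The subunits of the non-canonical pathway, p100/p52 from *NFKB2* and RelB from *RELB*, also went apart. *RELB* had 252 UMIs or 13.0 CPM (11.4 to 14.7) in control and 284 UMIs or 29.9 CPM (26.5 to 33.6) in SP11. Its ratio on the log2 scale was 1.20 (0.95 to 1.45). This was the highest ratio of the 5 subunits. *NFKB2* had 201 UMIs or 10.4 CPM (8.99 to 11.9) in control and 89 UMIs or 9.37 CPM (7.52 to 11.5) in SP11. Its log2 ratio of -0.15 (-0.52 to 0.22) was not distinguishable from 0 at this depth and turned to 0.18 and 0.20 with TMM and DESeq2 scaling. Relative to *RELA*, the log2 change was 0.52 (0.16 to 0.88) for *RELB* and -0.83 (-1.29 to -0.38) for *NFKB2*.

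Of the feedback inhibitors, *NFKBIA* differed the most. It encodes IkB-alpha, the classical inhibitor that is degraded on signalling and made again under NF-kB control. It had 234 UMIs or 12.1 CPM (10.6 to 13.7) in control and 418 UMIs or 44.01 CPM (39.9 to 48.4) in SP11. The log2 ratio was 1.87 (1.63 to 2.10), a 3.64-fold higher level, and 99.5% of measured genes had a lower ratio. *NFKBIE*, which encodes IkB-epsilon, had 519 UMIs or 26.8 CPM (24.5 to 29.2) in control and 470 UMIs or 49.5 CPM (45.1 to 54.2) in SP11. Its log2 ratio was 0.89 (0.70 to 1.07). *NFKBIB*, the gene of IkB-beta and not a member here, served as a comparison within the IkB family. It went from 23.1 to 31.0 CPM, and the quotient of *NFKBIA* to *NFKBIB* UMIs went from 0.522 to 1.42, a log2 change of 1.44 (1.12 to 1.77).

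*TNFAIP3* encodes A20, an enzyme that edits ubiquitin chains and stops signalling upstream of IKK. It had 295 UMIs or 15.2 CPM (13.5 to 17.1) in control and 343 UMIs or 36.1 CPM (32.4 to 40.1) in SP11. The log2 ratio of 1.25 (1.02 to 1.48) was the second highest of the 10 members. The ratio of *NFKBIA* was larger still, with 1.26 *TNFAIP3* UMIs per *NFKBIA* UMI in control and 0.821 in SP11, a log2 change of -0.62 (-0.95 to -0.29).

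The nuclear IkB proteins, which bind NF-kB dimers on DNA and modulate transcription there, were the lowest-counted feedback genes. *BCL3* had 69 UMIs or 3.56 CPM (2.77 to 4.51) in control and 63 UMIs or 6.63 CPM (5.10 to 8.49) in SP11. Its ratio on the log2 scale was 0.90 (0.38 to 1.41). *NFKBIZ*, the gene of IkB-zeta, had 218 UMIs or 11.3 CPM (9.81 to 12.8) in control and 114 UMIs or 12.0 CPM (9.90 to 14.4) in SP11. Its log2 ratio was 0.09 (-0.25 to 0.43), the only feedback gene whose interval included 0. Relative to *NFKBIA*, *NFKBIZ* had a log2 change of -1.77 (-2.19 to -1.36). Within the feedback genes, *NFKBIZ* made up 16.3% (14.4 to 18.4) of the UMIs in control and 8.10% (6.72 to 9.65) in SP11, whereas *NFKBIA* went from 17.5% (15.5 to 19.7) to 29.7% (27.3 to 32.2).

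**Figure D2:**
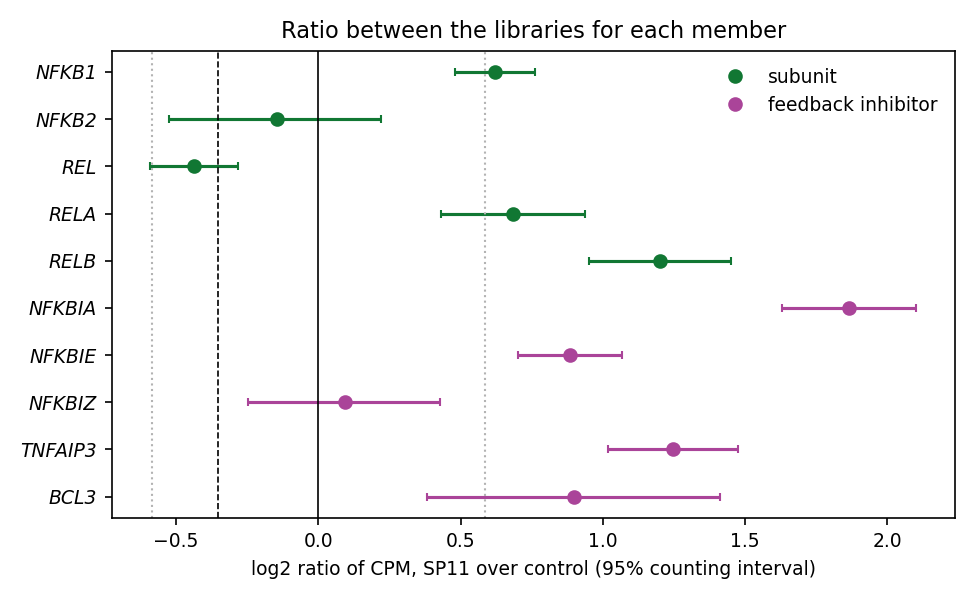
Each member's log2 ratio between the libraries (SP11 CPM divided by control CPM) with its 95% counting interval; the median measured gene (-0.35) is dashed and the dotted lines mark 1.5-fold. *NFKBIA* lies furthest to the right at 1.87, and *REL* (-0.44) and *NFKB2* (-0.15) are the only members left of 0.

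Set against each other within a library, there were more feedback UMIs per subunit UMI in SP11. Summed over the 5 genes, feedback inhibitors had 1335 UMIs or 68.9 CPM (65.3 to 72.7) in control and 1408 UMIs or 148 CPM (141 to 156) in SP11. The subunits summed to 3018 UMIs or 156 CPM (150 to 161) in control and 1805 UMIs or 190 CPM (181 to 199) in SP11. There were 0.442 feedback UMIs per subunit UMI in control and 0.780 in SP11, a log2 change of 0.82 (0.68 to 0.96). The size of this change rested largely on 2 members. Without *NFKBIA* it was 0.59 (0.44 to 0.74), without *REL* 0.44 (0.29 to 0.59), and without both 0.21 (0.05 to 0.37). None of these changes was adjusted for the intronic length of the genes, which is described below.

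NF-kB dimers bind DNA at kB sites, and the promoters of several members hold such a sequence. The sequences shown are those of the feedback genes with the highest ratios and of the kB matches in members that were higher, lower or about level in SP11. They come from RefSeq on GRCh38.p14, read 5′ to 3′ on the strand of the gene, with each match to the kB site consensus in capitals. The consensus was searched on both strands in the 250 bases before each start, and matches may overlap. RefSeq promoters were matched by symbol for 8 of the 10 members, all except *RELB* and *NFKBIE*. A match lay in 8 of their 13 listed promoters, against 9.96% of 35116 promoters of that length. The *NFKBIA* stretch is chr14:35404750-35404999 on the minus strand and ends at the base before the annotated start of the gene.
*NFKBIA*: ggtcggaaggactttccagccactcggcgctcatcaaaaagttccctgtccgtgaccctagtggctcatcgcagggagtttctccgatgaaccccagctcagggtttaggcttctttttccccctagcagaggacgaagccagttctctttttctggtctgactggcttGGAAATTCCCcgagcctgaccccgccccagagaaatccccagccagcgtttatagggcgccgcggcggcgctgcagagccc

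The *TNFAIP3* stretch is chr6:137867009-137867213 on the plus strand and holds a pair of matches side by side, which begin 67 and 55 bases before the RefSeq start.
*TNFAIP3*: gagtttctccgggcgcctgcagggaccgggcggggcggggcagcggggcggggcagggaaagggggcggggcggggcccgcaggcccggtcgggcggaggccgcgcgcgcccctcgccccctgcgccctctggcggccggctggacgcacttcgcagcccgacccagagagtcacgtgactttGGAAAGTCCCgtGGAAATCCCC

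For 4 other members the 30 bases around a match are given, all on the plus strand, at chr4:102501300-102501329 for *NFKB1*, chr2:60881518-60881547 for *REL*, chr10:102394462-102394491 for *NFKB2* and chr3:101827757-101827786 for *NFKBIZ*.
*NFKB1*: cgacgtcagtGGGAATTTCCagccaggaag
*REL*: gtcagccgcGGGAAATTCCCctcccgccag
*NFKB2*: aaacgtcatGGGAATTCCCCcctccggggg
*NFKBIZ*: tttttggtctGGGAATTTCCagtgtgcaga

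Whether these matches bear on the ratios was not tested. No match was found in these windows of *RELA* and *BCL3*, which says only that these letters are not there.

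The genes differ in the length of their introns, and ratios in these libraries were lowest for genes with long introns. Intronic length here counts only bases that no exon of any annotated transcript covers. It can therefore fall short of the introns of a single transcript. *NFKB1* lies at 102501330 to 102617302 of chromosome 4 with 100294 bases of intron (GENCODE 44, GRCh38), and the 605 measured genes of similar intronic length had a median log2 ratio of -0.59. Relative to them *NFKB1* was at 1.21. *NFKBIA*, at 35401079 to 35404749 of chromosome 14, has only 277 bases outside all annotated exons and was at 2.07 relative to genes of its bin. Genes of that bin had a median intronic length of 0 and a median log2 ratio of -0.20. In the bin with a median intronic length of 1094 bases the median log2 ratio was 0.12. *RELB*, at 45001461 to 45038192 of chromosome 19 with 33735 bases of intron, was at 1.54, and *REL*, at 60881491 to 60931612 of chromosome 2 with 32993 bases, at -0.14. On this scale *RELA* was at 0.58, just under 1.5-fold, and the median was 0.58 over the subunits and 0.94 over the feedback genes. Bin medians were -0.59 for *NFKB1*, 0.11 for *NFKB2* and *RELA*, -0.30 for *REL* and -0.34 for *RELB*. For the feedback genes they were -0.20 for *NFKBIA*, 0.02 for *NFKBIE*, -0.19 for *NFKBIZ* and -0.04 for *TNFAIP3* and *BCL3*. How much of the change in feedback per subunit UMIs goes with intronic length was not tested.

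The higher levels went with more cells in which a transcript was found. Because control cells held more UMIs, cells were compared at an equal 4400 UMIs drawn at random per cell, in 963 control and 769 SP11 cells, after 90 and 83 shallower cells were left out. No cells known to be without these transcripts were present, so the background from free RNA was not measured. *NFKBIA* was found in 5.09% of thinned control cells (95% exact binomial interval 3.79 to 6.67) and in 14.0% of thinned SP11 cells (11.7 to 16.7). For *TNFAIP3* the shares were 5.82% (4.42 to 7.49) and 13.5% (11.2 to 16.1), and for *RELB* they were 4.57% (3.34 to 6.09) and 13.3% (10.9 to 15.9). *NFKBIE* went from 11.01% (9.10 to 13.2) to 17.9% (15.3 to 20.8).

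*NFKB1* was found in 18.2% of thinned control cells (15.8 to 20.8) and in 29.0% of thinned SP11 cells (25.8 to 32.3). As a mean probability of detection at that depth, without a random draw, its shares were 19.5% and 28.2%. Without thinning the order turned, to 54.1% of control cells and 51.4% of SP11 cells. *REL* was found in 26.6% of control cells (23.8 to 29.5) and in 20.5% of SP11 cells (17.7 to 23.6), and *RELA* in 6.13% (4.70 to 7.83) and 8.97% (7.05 to 11.2). For *NFKB2* (4.88% and 3.64%), *NFKBIZ* (5.09% and 5.07%) and *BCL3* (2.18% and 2.60%) the intervals overlapped widely. The intervals of *RELA* overlapped as well. Over all members, 5 had a higher share in SP11 with intervals that did not overlap (*NFKBIA*, *TNFAIP3*, *RELB*, *NFKBIE* and *NFKB1*), against 12.1% of measured genes, and 1 had a lower share (*REL*), against 28.7%. The intervals count cells of 1 library each, which are not replicates, so they describe these libraries and not the conditions.

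Cells with several feedback transcripts at once were more common in the SP11 library. Higher shares of the single genes raise such counts by themselves, and whether the genes were found together beyond that was not tested. At equal depth, at least 1 of the 5 feedback genes was found in 25.8% of control cells (23.0 to 28.6) and in 40.1% of SP11 cells (36.6 to 43.6). At least 2 of them were found in 2.91% (1.94 to 4.17) and 11.3% (9.16 to 13.8). The same counts for the subunits were 48.8% (45.6 to 52.0) and 56.8% (53.2 to 60.4) for at least 1, and 10.7% (8.81 to 12.8) and 16.1% (13.6 to 18.9) for at least 2. In SP11, *NFKBIA* was found in 23 of 104 cells with a *TNFAIP3* UMI, or 22.1% (14.6 to 31.3), and in 12.8% (10.3 to 15.6) of cells without one. These intervals overlapped. In control the shares were 5.36% (1.12 to 14.9) and 5.07% (3.74 to 6.71).

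**Figure D3:**
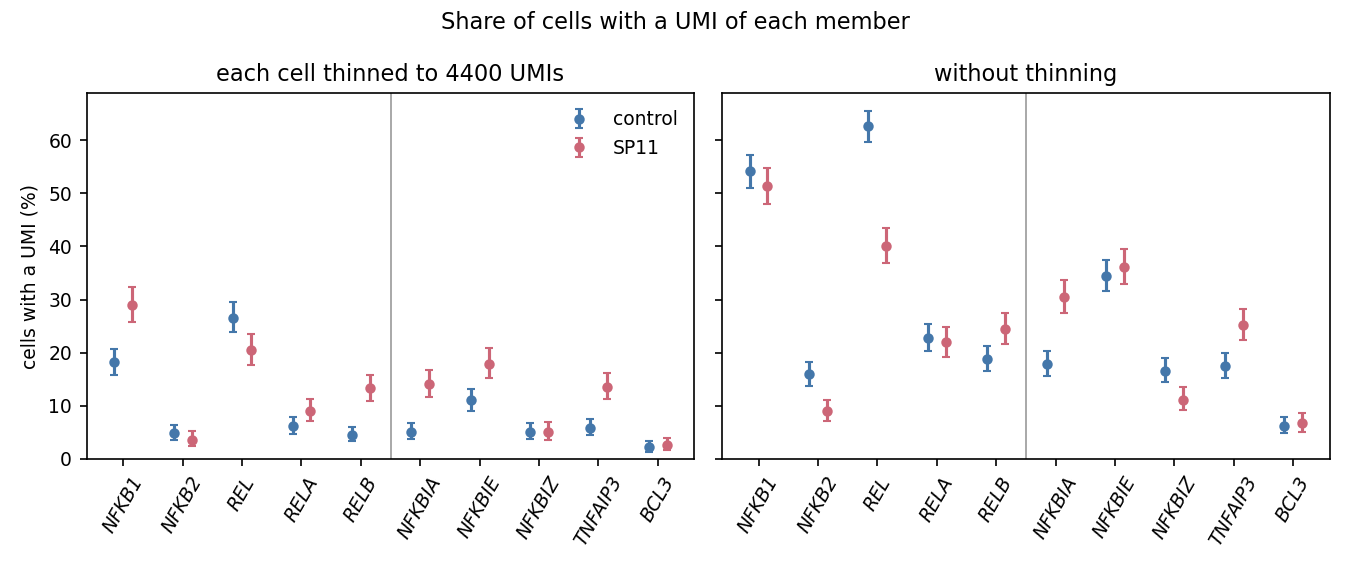
Percent of cells with a UMI of each member in each library, at 4400 UMIs per cell on the left and without thinning on the right, with 95% exact binomial intervals. At equal depth *NFKBIA* goes from 5.09% to 14.0%, and *NFKB1* is higher in SP11 on the left but not on the right.

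No single cell held a large part of any member's UMIs. The most UMIs in 1 cell were 8 in control (*REL* and *TNFAIP3*) and 7 in SP11 (*NFKBIA*, *NFKBIE* and *TNFAIP3*), and the top cell held between 0.613% and 4.39% of a member's UMIs. The 5% of cells with the most UMIs of *TNFAIP3* held 53.2% of them in control and 40.2% in SP11. For *NFKBIZ* they held 44.04% and 54.4%, for *NFKB2* 42.8% and 61.8%, and for *REL* 20.1% and 23.0%. Few UMIs by themselves make such a share high, so the shares do not measure concentration across genes or libraries. *NFKB2* had 201 control and 89 SP11 UMIs. *BCL3*, with 69 and 63 UMIs, was at 81.2% and 77.8%. With the 1% of cells highest for each gene left out, 7 members were still at least 1.5-fold higher.

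Within each library the members were followed over 6 clusters, made from all genes in that library alone, so that differences between clusters are a description. Control cluster 5 (76 cells, median 788 UMIs) and SP11 cluster 4 (70 cells, median 1826 UMIs) were shallow, and with 9 and 12 subunit UMIs their levels are not read. In the 5 other control clusters the summed feedback level lay between 59.8 CPM (53.5 to 66.7) and 86.9 CPM (75.4 to 99.6). In the 5 other SP11 clusters it lay between 123 CPM (110 to 137) and 229 CPM (177 to 293), above each of those control clusters. The subunits overlapped, at 148 to 178 CPM in control and 176 to 198 CPM in SP11.

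By gene, *NFKBIA* lay between 10.5 and 13.9 CPM over the 5 control clusters and between 31.8 and 89.6 CPM over the 5 SP11 clusters. The values of *RELB* (10.7 to 17.0 CPM and 21.5 to 33.1 CPM) and *RELA* (12.5 to 18.2 CPM and 20.2 to 32.3 CPM) also had no overlap. Their counting intervals did overlap. For *RELB* they were 12.1 to 23.1 CPM in control cluster 3 and 7.89 to 46.8 CPM, from 6 UMIs, in SP11 cluster 5. For *RELA* they were 13.2 to 24.5 CPM in control cluster 3 and 14.1 to 28.0 CPM in SP11 cluster 2. The values of *TNFAIP3* did overlap, at 11.4 to 26.4 CPM in control and 24.4 to 50.2 CPM in SP11. Those of *NFKBIE* did too, at 21.8 to 42.4 CPM and 42.1 to 57.0 CPM. The highest *TNFAIP3* level of the control library was in cluster 2, which *DDIT4* and *PFKFB4* were among the genes leading.

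The quotient of feedback to subunit UMIs differed among the 5 SP11 clusters that were read, and only in cluster 5 was its value above 1. No interval was made for these quotients. In cluster 5 it rested on 64 feedback and 49 subunit UMIs. The intervals of its feedback level (177 to 293 CPM) and its subunit level (130 to 232 CPM) overlapped, so a value above 1 was not settled there. SP11 cluster 5, with 20 cells, had *ATP6V0D2*, *TDO2*, *MMP1*, *S100A12* and *S100A9* among its leading genes and 1.31 feedback UMIs per subunit UMI. There *NFKBIA* was at 89.6 CPM (58.0 to 132) and *BCL3* at 25.1 CPM (10.1 to 51.7, from 7 UMIs). The myeloid transcripts *S100A8* and *CXCL8* were at 3236 CPM and 315 CPM in the same cells. *TRAF1*, itself an NF-kB target with only 38 UMIs in the SP11 library, was among the leading genes of SP11 cluster 0. That cluster, the largest with 292 cells, had 0.895 feedback UMIs per subunit UMI. Its *CXCL8* level was 90.0 CPM. SP11 cluster 1, with the mitotic genes *PIF1*, *UBE2C* and *TOP2A* among those leading, had the lowest quotient of the 5 at 0.635 and a *CXCL8* level of 15.2 CPM. SP11 cluster 2 had a quotient of 0.75 with *CXCL8* at 38.2 CPM, and SP11 cluster 3 had 0.72 with *CXCL8* at 76.0 CPM. The order by *CXCL8* was thus not that by quotient. Without SP11 cluster 5 the log2 change of feedback per subunit UMIs between the libraries was 0.79 (0.65 to 0.93), and 7 members stayed at least 1.5-fold higher.

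**Figure D4:**
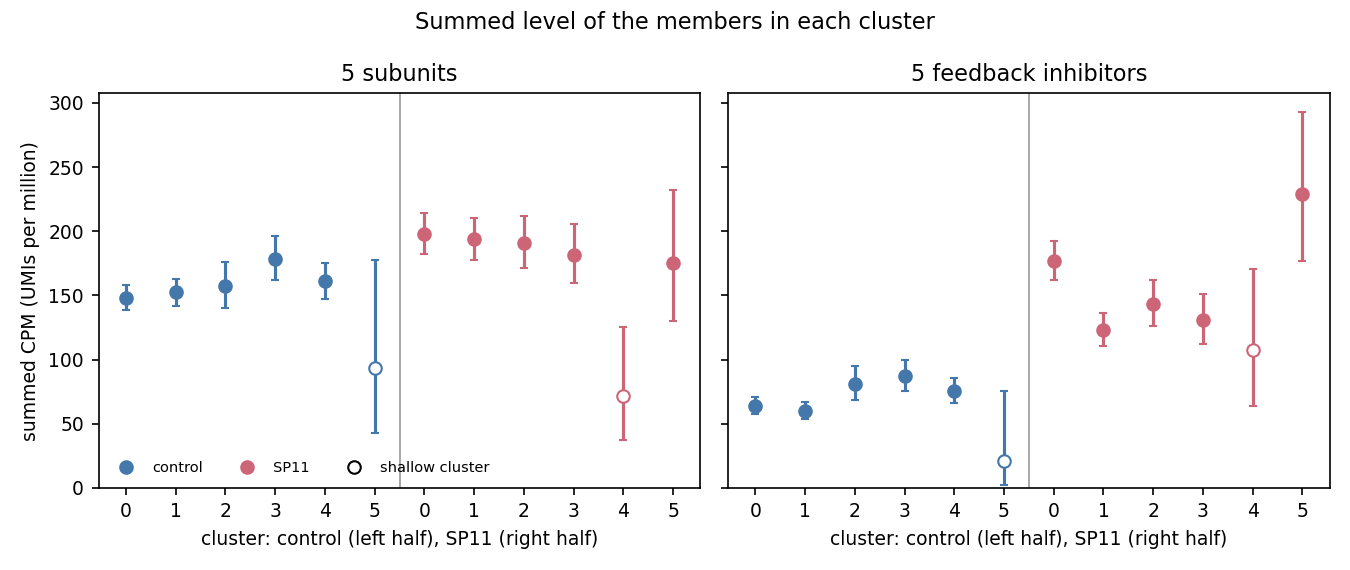
Summed CPM of the 5 subunits (left) and the 5 feedback inhibitors (right) in each cluster, with 95% Poisson intervals; open points are the shallow clusters. The filled feedback points lie between 59.8 and 86.9 CPM in control and between 123 and 229 CPM in SP11, while the subunit points overlap.

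By cell cycle phase call, summed feedback levels were 71.8 CPM (64.6 to 79.6) in G1, 60.8 CPM (55.0 to 67.1) in S and 73.9 CPM (68.0 to 80.2) in G2M of control, and 150 CPM (134 to 167), 171 CPM (156 to 186) and 133 CPM (122 to 144) in SP11. In each phase the SP11 level was above that of control.

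Over the 10 clusters that were not shallow, *SEC13*, *MRPL34* and *GPX4* had the log2(CPM + 1) pattern most like that of the summed feedback genes, among 9560 genes with 200 or more UMIs. Pearson's r was 0.988, 0.984 and 0.983. For the subunits it was 0.90 for *RELA*, 0.79 for *RELB*, 0.46 for *NFKB1*, -0.06 for *NFKB2* and -0.47 for *REL*. Clusters of 1 library share its depth and treatment, so the 10 points are not independent.

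Receptors, kinases and ligases upstream of the dimers had medians between -0.29 and -0.07, against -0.35 over all measured genes. Of 15 measured receptors and adaptors, 0 were at least 1.5-fold higher and 3 lower, with a median log2 ratio of -0.29, against 10.7% and 38.4% of all measured genes. Relative to the median gene the balance turned, to 3 higher and 0 lower, against 22.5% and 24.3%. *IRAK1*, a kinase of the Toll-like and interleukin-1 receptor pathway, had the highest ratio at 0.43 (0.36 to 0.50), followed by its adaptor *MYD88* at 0.27 (-0.03 to 0.56). *IL1RAP*, a co-receptor for interleukin-1, was at -0.83 (-1.11 to -0.57) and *TRAF6*, a ubiquitin ligase downstream of it, at -0.78 (-1.34 to -0.26). Of 10 kinases and their binding partners 1 was higher and 3 lower, with a median of -0.15, and relative to the median gene 2 were higher and 1 lower. The IKK subunits differed among themselves, with *CHUK* (IKK-alpha) at 0.13 (-0.11 to 0.36), *IKBKB* (IKK-beta) at -0.51 (-0.68 to -0.34) and *IKBKG* (the scaffold NEMO) at 0.49 (0.23 to 0.75). *IKBKE*, an IKK-related kinase, had the highest ratio of its list at 1.29 (1.08 to 1.497), from 17.7 CPM to 43.2 CPM. *TAB1* at -1.61 (-2.08 to -1.17) and *TAB3* at -0.74 (-1.09 to -0.41), partners of the kinase TAK1, had the lowest. Relative to genes of similar intronic length, *IL1RAP* was at -0.14, *IKBKB* at -0.04 and *TAB3* at -0.05. On that scale *TRAF6* was at -0.62 and *TAB1* at -1.32.

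Ubiquitin ligases that act on IkB proteins or build linear chains had a median of -0.07, and of these 8 genes 1 was at least 1.5-fold higher and 2 were lower, against 10.7% and 38.4% of measured genes, or 1 and 1 relative to the median gene, against 22.5% and 24.3%. *SKP1* (0.62) and *RBX1* (0.17), parts of the ligase core, had the highest ratios. *BTRC*, the F-box protein that recognises phosphorylated IkB-alpha, was at -1.16 (-1.34 to -0.98), and its relative *FBXW11* at -0.60 (-0.75 to -0.46). Relative to genes of similar intronic length, *BTRC* was at -0.32 and *FBXW11* at 0.09. Other inhibitors of the pathway, beyond the 5 feedback members, had a median of 0.22, with 3 of 14 higher and 1 lower, or 6 and 0 relative to the median gene. *ZC3H12A*, an RNase that cuts cytokine transcripts, was at 1.12 (0.69 to 1.55) and *SPATA2*, which recruits the deubiquitinase CYLD, at 0.87 (0.50 to 1.24). *N4BP1* was at -0.27 (-0.51 to -0.04) and *TAX1BP1*, an adaptor of A20, at -0.61 (-0.67 to -0.56). Relative to genes of similar intronic length, *N4BP1* was at 0.30 and *TAX1BP1* at -0.03.

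Inducing ligands were scarce, apart from *TNFSF13B* (BAFF), which had 139 CPM in control against 102 CPM after SP11. Of 5 measured ligands 3 were at least 1.5-fold higher and 0 lower, on both scales, with a median of 1.00. Among all measured genes 10.7% were higher and 38.4% lower, or 22.5% and 24.3% relative to the median gene. *TNFSF10* was at 1.51 (0.73 to 2.32) from 25 and 35 UMIs and *TNF* at 1.28 (0.56 to 2.02) from 31 and 37 UMIs. *TNFSF13B* was at -0.46 (-0.56 to -0.35) and *LTB* at -0.56 (-1.34 to 0.18). The third ligand at least 1.5-fold higher was *IL1B*, at 1.00 (0.36 to 1.63), and 27 of its 45 control UMIs came from 1 cell.

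Known NF-kB targets other than the members had a median of 1.15, and 12 of the 20 measured were at least 1.5-fold higher and 3 lower, against 10.7% and 38.4% of all measured genes. Relative to the median gene, 14 were higher and 2 lower, against 22.5% and 24.3%. *CCL2*, a monocyte-attracting chemokine, differed the most, with 14.7 CPM in control against 220 CPM after SP11 and a log2 ratio of 3.90 (3.73 to 4.09). *MMP9*, a matrix protease with 19 control and 99 SP11 UMIs, was at 3.41 (2.69 to 4.201). *PLAU*, the urokinase, was at -1.40 (-1.62 to -1.19) and *GADD45B*, a stress gene, at -1.005 (-1.36 to -0.66). Some targets were uneven among cells, and 60 of the 285 control UMIs of *CCL2* came from 1 cell. For *CXCL8*, a neutrophil-attracting chemokine named after its values were seen, 203 of 470 control UMIs came from 1 cell, while its 590 SP11 UMIs came from 226 cells with at most 19 in 1 cell. *IL6* and *VCAM1* had 0 UMIs in both libraries.

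**Figure D5:**
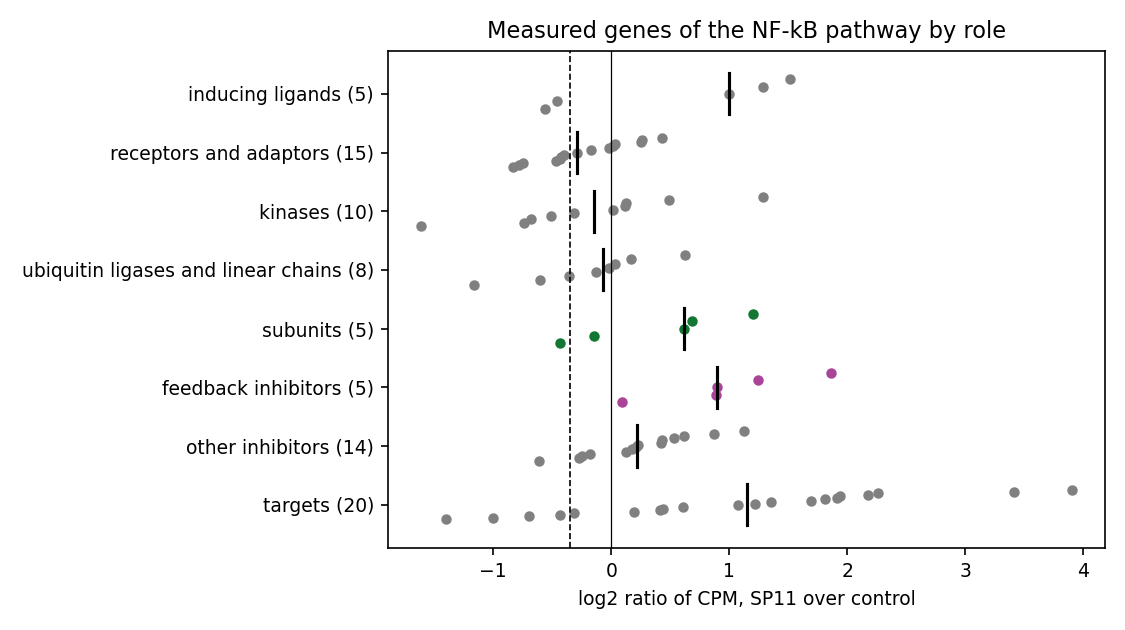
Log2 of SP11 CPM divided by control CPM for the measured genes of the NF-kB pathway, grouped by role with the number of genes in brackets; short black bars are list medians and the median measured gene (-0.35) is dashed. Targets (1.15), ligands (1.00) and feedback inhibitors (0.90) have the highest medians, receptors and adaptors (-0.29) the lowest.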

How the data were processed

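Single-cell RNA-seq of 1 control and 1 SP11 library was analysed. The authors deposited UMI counts per gene and barcode. Cell Ranger 7.1.0 made them, per the file headers, with GRCh38 (hg38) as the build in the submitters' processing notes. The sources used here do not say whether intronic reads were counted.

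Barcodes with at least 200 genes and at most 20% mitochondrial UMIs were kept, the thresholds the study states. The study retained fewer cells of each library, and the further step behind that is not known here. The matrices held 19512669 control and 9561360 SP11 UMIs. Doublets were kept in the main values. Scrublet (scanpy 1.11.5) called 45 control and 21 SP11 cells, which were removed in an alternative.

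A ratio is that of CPM between the libraries, with a Clopper-Pearson interval from how each gene's UMIs divide between the libraries. Changes of quotients carry the exact conditional interval of a 2 by 2 table (scipy 1.17.1). A fold of 1.5 is a size, not a call. Clusters and phases came from Seurat 5.3.0 (R 4.3.3), at resolution 0.5 on 10 principal components of 2000 variable features, for each library alone. A cluster's leading genes are those of 20 or more UMIs there whose CPM most exceeded that of the library's other cells. Intronic length was taken from GENCODE 44 in 20 bins. Alternatives included TMM (edgeR 4.0.16) and DESeq2 1.42.0 size factors. The interval code was tested on simulated data.

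Members and lists were chosen with earlier results of these data known. Genes named are the members, the 2 highest and 2 lowest of each other list, the IKK subunits, the 3 genes most like the summed feedback genes over clusters, and markers. Others were named after their values were seen, namely *NFKBIB*, *IL1B*, *CXCL8*, *IL6*, *VCAM1* and genes leading clusters.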

Additional observations from a re-analysis of the deposited data

How the results depend on the processing

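With 1 library per group, these values say how far the processing moves a number and nothing of how repeat cultures would differ. No paired analysis was possible because each group had 1 library. The median log2 ratio of the subunits was 0.94 with TMM and 0.97 with DESeq2 scaling, and the log2 change of feedback per subunit UMIs was 0.59 without *NFKBIA*. Leaving out other members, chosen after seeing the data, gave 0.44 without *REL*, 1.01 without *NFKB1* and 0.21 without *NFKBIA* and *REL*, against 0.82 with all 10. The difference of SP11 minus control in percent of cells with an *NFKB1* UMI turned to -2.72 without thinning. Over the 14 alternatives run for each member, including removal of shared barcodes, of shallow clusters and of SP11 cluster 5, all 3 chosen after seeing the data, the log2 ratio ranged from 1.79 to 2.22 for *NFKBIA*, from 1.19 to 1.60 for *TNFAIP3*, from 1.05 to 1.67 for *RELB*, from 0.82 to 1.24 for *NFKBIE*, from 0.58 to 1.04 for *RELA*, from 0.54 to 1.21 for *NFKB1* and from -0.49 to -0.09 for *REL*. It ranged from 0.32 to 1.25 for *BCL3*, from -0.40 to 0.20 for *NFKB2* and from -0.11 to 0.44 for *NFKBIZ*, so that the last 2 have no settled direction. *NFKB1* lay close to 1.5-fold, and 6 or 7 members were at least 1.5-fold higher in every alternative run, with 0 at least 1.5-fold lower. Depth limits *BCL3* and *NFKB2* most, with 63 and 89 SP11 UMIs.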
